A study of Mus musculus with 4 samples.

Results

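Neurexins are presynaptic adhesion proteins, and neuroligins, LRRTM proteins and cerebellins are the partners that they bind across the synaptic cleft. The 9 genes described here were chosen by name from the gene table of the series, which holds 56748 genes: the neurexins Nrxn2 and Nrxn3, the neuroligins Nlgn1, Nlgn2 and Nlgn3, the leucine-rich repeat proteins Lrrtm3 and Lrrtm4, and the secreted cerebellins Cbln2 and Cbln4. All 9 were found. RNA of single nuclei was counted in hippocampus of male mice after repeated social defeat (RSD), a stress in which an aggressor is placed in the home cage on successive evenings. Nuclei were collected 14 h after the last defeat, and the hippocampi of 3 mice made up each of 8 pools.

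The 8 pools fell into 2 experiments of 4 pools. In the diet experiment, Con-Veh and Con-PLX were undisturbed and Stress-Veh and Stress-PLX had undergone RSD, and the PLX pools had eaten chow with PLX5622, an antagonist of the CSF1 receptor that depletes microglia, while the Veh pools had eaten vehicle chow. In the genotype experiment, mice labelled IL-1R1+/+ (wild type) or nIL-1R1-/- (knockout) were either left undisturbed (Con) or had undergone RSD (Stress). The nIL-1R1-/- mice lacked the interleukin-1 receptor Il1r1 in cells in which a Vglut2-Cre had been active, which is a deletion in glutamatergic neurons and not in the whole hippocampus, and the IL-1R1+/+ mice were of the same line without Cre. The labels give neither the age of the mice nor the strain of the diet pools, so experiment and strain cannot be told apart. Median depth, given next, was lower in every diet pool than in every genotype pool. With 1 pool of 3 mice for each condition, no condition had replicate pools. The p-values for RSD set the RSD change against how far that change varied between the pairs of pools. Those for PLX5622 and the knockout set the difference between 1 pair and 1 other pair against the same spread. That spread holds no difference between replicate pools of the same diet or genotype.

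After nuclei with over 20% mitochondrial UMIs (unique transcripts) were left out, 56834 of 57350 nuclei remained, and no barcode stood in more than 1 pool. Depth differed widely. The median nucleus had 598 UMIs in Con-PLX, 628 in Stress-PLX and 1325.5 in Stress-Veh, against 2563 in Con-Veh and 2580 to 5012 in the 4 genotype pools. Total UMIs ran from 7534594 in Stress-PLX to 58081835 in Con-nIL-1R1-/-. Classes of nuclei were built by clustering and named from marker genes, and the 9 genes and their partners were kept out of the genes used to cluster. The 4 main classes were granule neurons of the dentate gyrus (DG-like, 10535 nuclei), CA1-like pyramidal neurons (8337), CA2/3-like pyramidal neurons (5227) and inhibitory neurons (INH-like, 5540, of which 2320 were Lhx6-like, 2392 Vip/Adarb2-like and 828 neurogliaform-like). The 8 DG markers summed to a median of 2136 CPM (a gene's UMIs in a class and pool, scaled to the same total everywhere) in DG-like nuclei and to 94.9 CPM in CA1-like nuclei. Il1r1 in DG-like nuclei was 11.5 and 9.10 CPM in the control and RSD knockout pools and 29.7 to 90.9 CPM in the other 6 pools. The 200 microglia-like nuclei included none from either PLX pool.

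Trans-synaptic adhesion of this family is known for setting what kind of synapse forms. Nlgn1 protein sits mainly at excitatory synapses, Nlgn2 protein at inhibitory synapses, and Nlgn3 protein at both. LRRTM proteins are postsynaptic partners of neurexins at excitatory synapses, and Lrrtm4 is known for its place on dendrites of dentate granule neurons. Cerebellins are secreted and bridge neurexins to delta-type glutamate receptors.

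The genes differ greatly in how much of the genome they cover, which matters for nuclear RNA because unspliced transcripts are counted. On GRCm39, Nrxn3 lies on the plus strand of chromosome 12 from 88689646 to 90301709 and spans 1612.1 kb. Nlgn1 spans 906.2 kb on the minus strand of chromosome 3 (25480379 to 26386609), and Lrrtm4 spans 791.3 kb on the plus strand of chromosome 6 (79995860 to 80787124). Lrrtm3 covers 162.2 kb on chromosome 10 (63763854 to 63926056, minus strand) and Nrxn2 covers 125.4 kb on chromosome 19 (6468761 to 6594199, plus strand). The remaining 4 genes are short, at 26.8 kb for Nlgn3 on chromosome X (100342750 to 100369570), 14.7 kb for Nlgn2 on chromosome 11 (69713948 to 69728613), 9.3 kb for Cbln2 on chromosome 18 (86729008 to 86738347) and 7.3 kb for Cbln4 on chromosome 2 (171878142 to 171885460). Lrrtm3 lies wholly inside Ctnna3, which is on the opposite strand. Whether reads were counted by strand is not given in the sources used here, so reads of Lrrtm3 and Ctnna3 may not be told apart. Ctnna3, which encodes an alpha-catenin, had a median of 1576 CPM in oligodendrocyte-like nuclei, where Lrrtm3 was at 115.5 CPM.

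Over all nuclei, 3 genes made up most of the family's RNA. Nrxn3 had 1062030 UMIs (4882 CPM), Lrrtm4 had 756227 (3476 CPM) and Nlgn1 had 750230 (3449 CPM). Nrxn2 and Lrrtm3 were at 260.3 and 260.2 CPM, Nlgn2 at 55.3 CPM and Nlgn3 at 38.0 CPM. Cbln2 and Cbln4 had 407 and 392 UMIs in all. Per kb of gene span the order was different. Lrrtm4 was at 4.39 CPM per kb, Nlgn1 at 3.81, Nlgn2 at 3.76, Nrxn3 at 3.03, Nrxn2 at 2.08, Lrrtm3 at 1.60 and Nlgn3 at 1.42, so that the short Nlgn2 stood beside the long Nlgn1 on this scale. Cbln4 and Cbln2 stayed lowest at 0.247 and 0.201 CPM per kb.

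Where each gene was highest is a description, since the classes were clustered from the same nuclei, and it is given as the median CPM of 8 pools with the lowest and the highest pool. The comparison took in 12 classes, with INH-like nuclei split into their subclasses. Nrxn3, a neurexin whose transcripts are heavily spliced, was highest in Vip/Adarb2-like nuclei at 14213 CPM (8061 to 16695), then in Lhx6-like nuclei at 9150 CPM (6144 to 10254), CA2/3-like nuclei at 6587 CPM and CA1-like nuclei at 4780 CPM. DG-like nuclei had 1616 CPM (1410 to 2003), and all 8 of their pools lay below the lowest CA1-like pool at 2444 CPM. Nrxn2 was spread more evenly over neurons, from 167.5 CPM in DG-like to 397.1 CPM in Vip/Adarb2-like nuclei, and was highest in nuclei of oligodendrocyte precursors (OPC-like) at 745.6 CPM (501.1 to 1195). Neighbouring classes overlapped in the order of both neurexins.

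**Figure D1:**
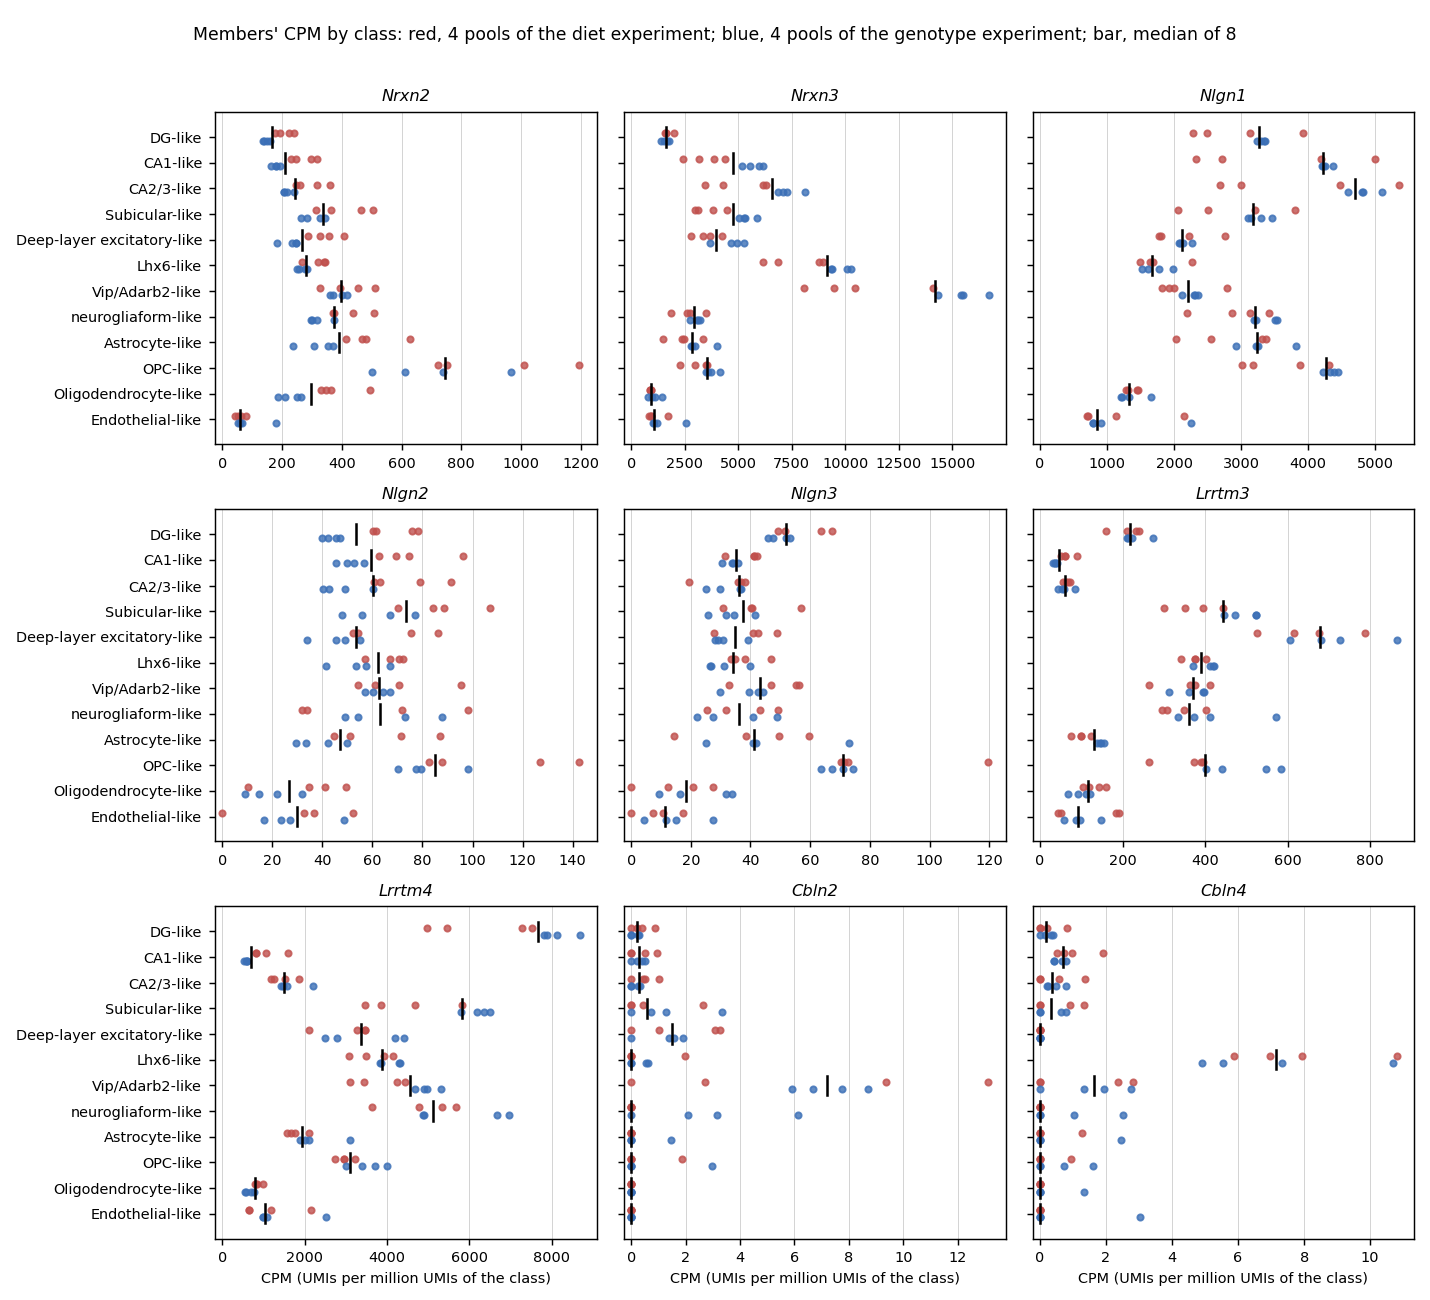
CPM of the 9 genes (x axis, linear, starting near 0) in 12 classes (y axis); each point is 1 pool, red for the diet and blue for the genotype experiment, and the black bar is the median of 8 pools. Lrrtm4 stands highest in DG-like and lowest in CA1-like nuclei, Nrxn3 highest in Vip/Adarb2-like nuclei, and points for Cbln2 and Cbln4 lie near 0 in most classes.

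Both LRRTM genes differed widely between the excitatory classes. Lrrtm4 was highest in DG-like nuclei at 7665 CPM (4965 to 8688) and lowest of all 12 classes in CA1-like nuclei at 709.1 CPM (524.2 to 1585). CA2/3-like nuclei had 1502 CPM (1187 to 2214), and subicular-like nuclei had 5813 CPM (3465 to 6507). A UMI of Lrrtm4 was found in 95.2% of DG-like nuclei (95% exact binomial interval 94.8 to 95.6) and in 61.9% of CA1-like nuclei (60.8 to 62.9), at median depths of 1571 and 1556 UMIs. After every nucleus was thinned to 500 UMIs and shallower nuclei were left out, those shares were 93.8% of 8953 nuclei and 29.3% of 6825. Intervals of this kind cover counting error only. In non-neuronal classes the thinned share was 23.0% in microglia-like, 24.7% in oligodendrocyte-like (22.5 to 26.9), 34.4% in astrocyte-like and 71.3% in OPC-like nuclei, and the share before thinning was 39.7% in oligodendrocyte-like nuclei at a median depth of 865 UMIs. The thinned share in CA1-like nuclei (28.3 to 30.4) lay within the range of these classes, and how much of it is free RNA was not tested.

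Lrrtm3 was highest in deep-layer excitatory-like nuclei at 679.1 CPM (526.2 to 865.6). No pool of the next class, subicular-like at 444.3 CPM, reached that range. The highest pools of OPC-like and neurogliaform-like nuclei, at 584.6 and 570.9 CPM, did reach it. The lowest levels of Lrrtm3 were in CA2/3-like nuclei at 60.5 CPM and CA1-like nuclei at 46.3 CPM (32.0 to 90.0). DG-like nuclei were in between at 217.4 CPM (159.7 to 274.9) and overlapped with neither neighbour in the order. Their range did overlap with those of OPC-like, Vip/Adarb2-like, oligodendrocyte-like and endothelial-like nuclei. Both LRRTM genes were lowest in CA1-like nuclei.

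Nlgn1 was highest in pyramidal neurons, with 4692 CPM in CA2/3-like (2684 to 5351) and 4214 CPM in CA1-like nuclei (2330 to 5002), and OPC-like nuclei stood between them at 4264 CPM. DG-like nuclei had 3264 CPM, Vip/Adarb2-like nuclei 2207 CPM and Lhx6-like nuclei 1667 CPM. Nlgn2, the neuroligin of inhibitory synapses, varied little, from 53.3 CPM in deep-layer excitatory-like nuclei to 73.5 CPM in subicular-like nuclei among the 8 neuronal classes, and all neighbours overlapped. Nlgn3 was 34.1 to 51.8 CPM in the same classes with DG-like nuclei highest. All 3 neuroligins were first or second in OPC-like nuclei, where Nlgn2 was at 85.1 CPM and Nlgn3 at 71.1 CPM. Neuronal RNA was present in the non-neuronal classes: Syt1, a neuronal vesicle protein, had a median of 1599 CPM in OPC-like, 1612.5 CPM in astrocyte-like and 650.5 CPM in oligodendrocyte-like nuclei, and its part in the levels of the 9 genes there was not tested.

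Cerebellin RNA was sparse. Cbln2 was highest in Vip/Adarb2-like nuclei, where 47 of 2392 had a UMI (1.96%, interval 1.45 to 2.60), while 0 of 2014 oligodendrocyte-like nuclei had one, at median depths of 1009 and 865 UMIs. By pool, Cbln2 in Vip/Adarb2-like nuclei was 9.38, 2.72, 13.1 and 0 CPM in Con-Veh, Con-PLX, Stress-Veh and Stress-PLX, and, in the genotype experiment, 6.68 and 7.73 CPM in wild-type and knockout controls and 8.69 and 5.92 CPM after RSD. Both PLX pools rested on at most 1 UMI, and a count of 0 in Stress-PLX allows up to 7.05 CPM (3 counts). Cbln4 was highest in Lhx6-like nuclei, where 69 of 2320 had a UMI (2.97%, 2.32 to 3.75), and its pools there, 4.92 to 10.8 CPM, lay above every pool of the next class, Vip/Adarb2-like at up to 2.81 CPM. Larger shares stood in clusters that met no class name. Cbln2 had a UMI in 84 of 1247 nuclei of a cluster led by Kcnh8 and Sntb1 (6.74%), and Cbln4 in 70 of 655 nuclei of a cluster led by 9330185C12Rik and Fermt1 (10.7%) and in 37 of 334 of a cluster led by Cpa6 (11.1%), where Cbln4 was itself among the 10 leading genes. Thinned to 500 UMIs, the shares were 1.32%, 1.41% and 0%, and the Cpa6 cluster was the deepest of them at a median of 6910.5 UMIs.

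As a description of which genes followed the same pattern, levels were correlated over 19 classes (Pearson's r of log2 CPM + 1, no p, classes sharing pools and depth). Within the family the closest pair was Nlgn1 and Nlgn3 (r = 0.81), then Nrxn2 with Nlgn3 (0.75) and Nlgn2 with Nlgn3 (0.72). Lrrtm4 was closest to Lrrtm3 (0.62), and Cbln2 was near 0 with Nrxn2 (-0.03) and Nlgn2 (-0.01). Outside it, Nrxn2 was most like Phactr3 (0.89), Nlgn3 most like Map2 (0.88), which encodes a dendritic microtubule protein, Lrrtm3 most like the calcium channel subunit Cacnb4 (0.86) and Nlgn1 most like Ylpm1 (0.86). The highest values for the rest were 0.84 for Nrxn3 with Cstf2, 0.84 for Nlgn2 with Lonrf2 and 0.82 for Lrrtm4 with Galnt14. Cbln2 reached 0.82 with Lamtor4 and Cbln4 reached 0.84 with 6330411D24Rik. These cerebellin values rest on 129 UMIs of Cbln2 and 151 of Cbln4 over the classes, under the minimum of 200 set for genes outside the family. Each closest gene outside the family was the highest among many genes.

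Next, the influence of RSD was assessed by comparing the 4 RSD pools with the 4 control pools within each class (edgeR quasi-likelihood test, 1 term for each pair of pools, Benjamini-Hochberg adjustment over all genes tested, threshold 0.05). Across the 4 main classes, Nlgn1, Nrxn3, Lrrtm3 and Lrrtm4 had negative log2 changes in every class and Nrxn2 and Nlgn2 had positive ones. However, 0 of the 9 genes passed the threshold. Of all genes, 0.0769% passed in DG-like, 0.00899% in CA1-like, 0.0995% in CA2/3-like and 0.0405% in INH-like nuclei. At an unadjusted p under 0.05 there were 3 of 7 members tested in DG-like, 2 of 7 in CA1-like, 4 of 7 in CA2/3-like and 2 of 9 in INH-like nuclei, against 1368 of 11696, 1747 of 11129, 2061 of 12057 and 1023 of 12333 genes in all. The DESeq2 Wald test called 0 members and 300 genes in these classes, where edgeR called 27 genes. With no filter on low counts edgeR called 7 member changes and 919 genes, and in the 4 diet pools alone 3 member changes and 1943 genes. The numbers of genes tested in those refits are not given here, so these counts cannot be read as shares. Cbln2 and Cbln4 passed the filter on low counts in INH-like nuclei and in no other main class.

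Nlgn1 in CA1-like nuclei was 4190 and 5002 CPM in Con-Veh and Con-PLX and 2720 and 2330 CPM in Stress-Veh and Stress-PLX. In the genotype experiment it was 4204 and 4370 CPM in the wild-type and knockout controls and 4248 and 4224 CPM in the wild-type and knockout RSD pools. Both RSD pools of the diet experiment lay below every other pool, whereas the 4 genotype pools lay close together. Over all 8 pools the log2 change was -0.46 (SE 0.17, edgeR adjusted p = 0.205).

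Nlgn1 showed a like pattern in CA2/3-like nuclei, with 3003 and 2684 CPM in Stress-Veh and Stress-PLX against 4467 and 5351 CPM in their controls, and 4588 to 5105 CPM in the 4 genotype pools (log2 change -0.44, SE 0.15, adjusted p = 0.174). In DG-like nuclei it was 2489 and 2275 CPM in the RSD pools and 3137 and 3917 CPM in the controls of the diet experiment, and 3236 to 3356 CPM in the genotype experiment (-0.31, SE 0.14, adjusted p = 0.401). In INH-like nuclei Nlgn1 was lower after RSD in all 4 pairs, with log2 ratios of -0.17, -0.45, -0.18 and -0.19 (edgeR log2 change -0.27, SE 0.10, adjusted p = 0.474). It was lower in all 4 pairs in CA2/3-like nuclei too, with log2 ratios from -1.0 to -0.06. Fitted over all pools, the log2 change of Nlgn1 was negative in 12 of 12 classes, which share the same pools. It ran from -0.84 to -0.05 with a median of -0.30. Single pairs did not all point down. Nlgn1 was higher after RSD in 2 of 12 classes in the vehicle pair and in 0 of 12 in the PLX pair. It was higher in 4 of 12 classes in the wild-type pair and in 4 of 12 in the knockout pair. In deep-layer excitatory-like nuclei Nlgn1 was higher in 3 of 4 pairs and lower in 1. Long genes as a whole also had negative median changes in the diet experiment, given below.

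**Figure D2:**
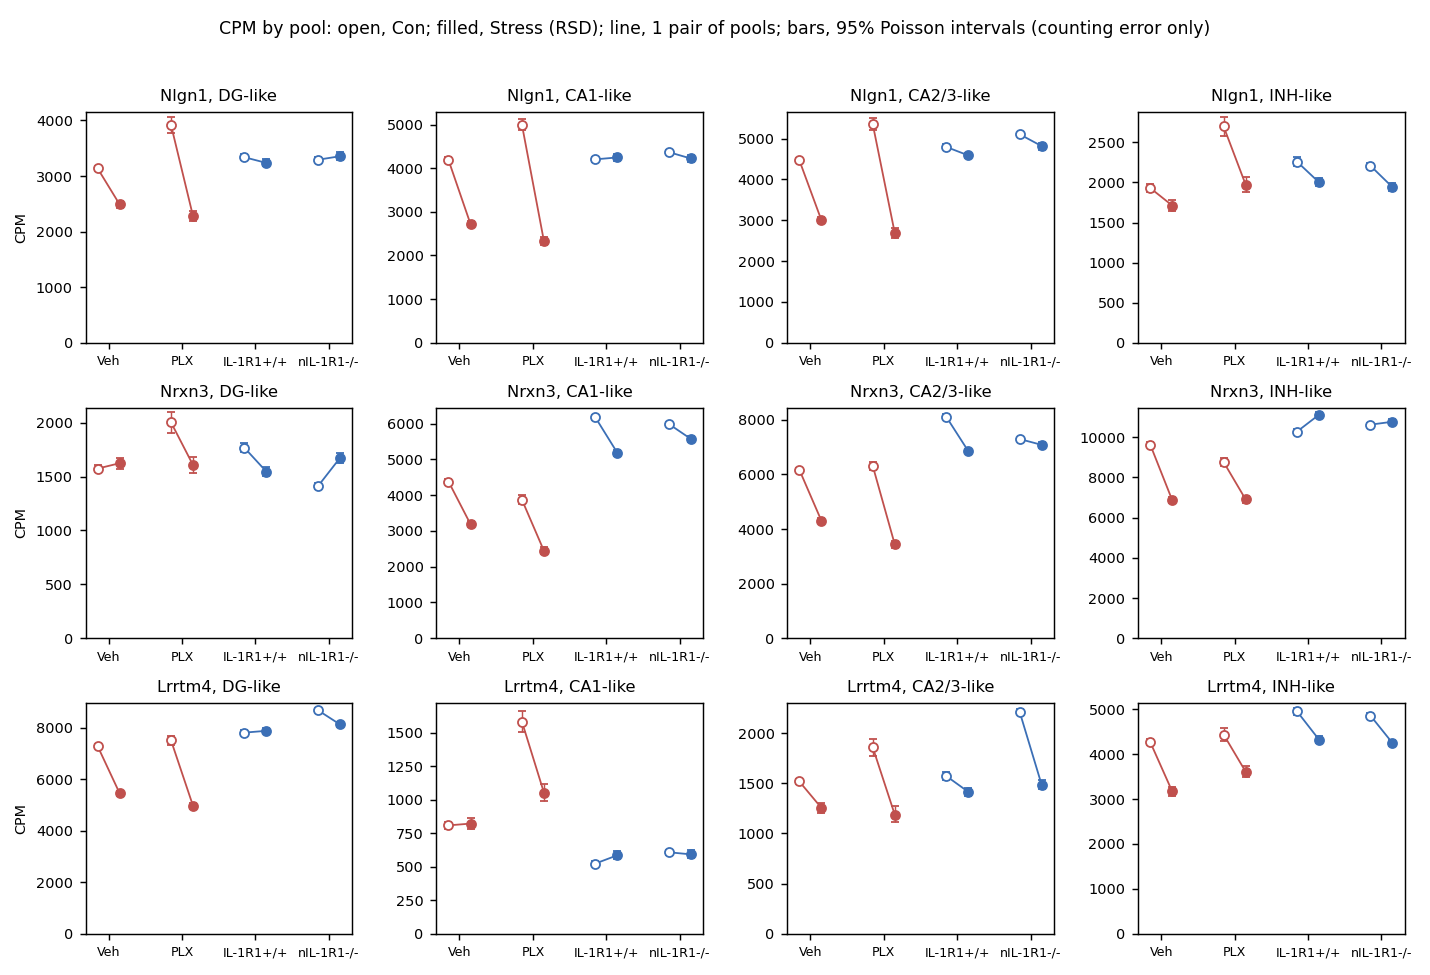
CPM of Nlgn1, Nrxn3 and Lrrtm4 (y axis, from 0) in the 4 main classes for each pair of pools (x axis); open circles are control pools, filled circles RSD pools, and bars are 95% Poisson intervals that cover counting error only. Nlgn1 in CA1-like nuclei is at 4190 and 2720 CPM and at 5002 and 2330 CPM in the diet pairs and lies between 4204 and 4370 CPM in the genotype pairs.

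Nrxn3 in CA2/3-like nuclei was 6173 and 6312 CPM in Con-Veh and Con-PLX and 4309 and 3436 CPM in Stress-Veh and Stress-PLX. The genotype pools had 8119 and 7300 CPM without and 6861 and 7086 CPM with RSD. The 4 pairs all pointed down, and the control and RSD groups overlapped because the 2 experiments stood at different levels (-0.43, SE 0.14, adjusted p = 0.155). In CA1-like nuclei Nrxn3 was likewise lower in all 4 pairs, with log2 ratios of -0.46, -0.66, -0.25 and -0.10 (-0.40, SE 0.14, adjusted p = 0.184). In INH-like nuclei it was 6868 and 6906 CPM in the RSD pools of the diet experiment against 9635 and 8764 CPM in their controls, whereas the genotype pairs had log2 ratios of 0.11 and 0.02. In DG-like nuclei, where Nrxn3 is lowest among the neurons, the pairs pointed both ways, from -0.32 to 0.25.

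Lrrtm4 was the member with the smallest adjusted p. In deep-layer excitatory-like nuclei it was 3464, 3460, 4413 and 4206 CPM in the vehicle, PLX, wild-type and knockout controls and 2096, 3271, 2498 and 2777 CPM in the matching RSD pools. Every RSD pool lay below every control pool, and the log2 change of -0.57 (SE 0.14, edgeR adjusted p = 0.0668) did not pass, in a class in which 0.688% of 8144 genes did. In neurogliaform-like nuclei the 4 controls, at 5340 to 6965 CPM, likewise lay above the 4 RSD pools at 3630 to 4891 CPM (-0.47, SE 0.12, edgeR adjusted p = 0.433), in a class in which 0% of genes passed. In INH-like nuclei as a whole Lrrtm4 was lower in all 4 pairs, with log2 ratios of -0.43, -0.30, -0.20 and -0.19 (adjusted p = 0.369). In CA2/3-like nuclei it was 1518 and 1858 CPM in the controls and 1255 and 1187 CPM in the RSD pools of the diet experiment, and it went from 1573 to 1415 CPM in IL-1R1+/+ and from 2214 to 1486 CPM in nIL-1R1-/- (-0.42, SE 0.13, adjusted p = 0.127). In DG-like nuclei, where Lrrtm4 is highest, it was 7290 and 7513 CPM in the controls and 5458 and 4965 CPM in the RSD pools of the diet experiment, and 7816 to 8688 CPM in the 4 genotype pools.

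Among the less abundant members, Nrxn2 had a positive log2 change in 11 of 12 classes (median 0.22). In OPC-like nuclei it was 722.3, 752.8, 610.9 and 501.1 CPM in the 4 controls and 1008, 1195, 738.3 and 964.8 CPM in the matching RSD pools, higher in every pair (0.56, SE 0.17, edgeR adjusted p = 0.213; 0.213% of genes passed in that class). Nlgn2 was positive in 10 of 11 classes (median 0.23), which share the same pools. Short genes as a whole also had positive median changes in the diet experiment, given below. In CA2/3-like nuclei the 4 pairs of Nlgn2 had log2 ratios of 0.38, 0.54, 0.28 and 0.50 (0.41, SE 0.13, edgeR adjusted p = 0.141). Nlgn3 had changes between -0.17 and 0.13 in the 4 main classes, all at an unadjusted p over 0.05. Lrrtm3 ran from -0.30 in CA1-like to -0.02 in INH-like nuclei. In INH-like nuclei, the cerebellins had changes of 0.22 (SE 0.46) for Cbln2 and -0.54 (SE 0.34) for Cbln4.

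The diet pairs and the genotype pairs differed for the long genes. The difference was therefore tested in an edgeR model with an RSD term for each experiment, a test chosen after the values were seen. Its p-values set the difference against how far the RSD change varied between the pairs within each experiment. Those pairs differ in diet or genotype, and none has a replicate. Nlgn1 in CA1-like nuclei had a log2 change of -0.91 (SE 0.14) in the diet experiment and -0.02 (SE 0.14) in the genotype experiment, and the difference of -0.89 (SE 0.20) passed (edgeR adjusted p = 0.0140). This was the only member past the threshold in any of 13 classes, and 1.19% of 11129 genes passed in CA1-like nuclei. Outside the 4 main classes the share of genes that passed was 0.32% in subicular-like, 0.265% in astrocyte-like, 0.0336% in oligodendrocyte-like, 0.0266% in OPC-like and 0.0232% in Vip/Adarb2-like nuclei, and 0% in the other 4 classes. Without any 1 of the 4 genotype pools the call was lost, since the difference was -0.86 to -0.92 while the adjusted p was 0.484 to 0.555, and over all 8 pools left out in turn it ran from -1.17 to -0.61.

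Nlgn1 in CA2/3-like nuclei had -0.81 and -0.07 (difference -0.74, SE 0.18, adjusted p = 0.0735) in a class in which 0.423% of genes passed. In DG-like nuclei Nlgn1 had -0.63 and 0 (adjusted p = 0.410) and Lrrtm4 had -0.58 and -0.03 (adjusted p = 0.473), with 0.0769% of genes past the threshold. Nrxn3 differed by -0.55 (SE 0.12) in INH-like nuclei, with -0.47 and 0.08 (adjusted p = 0.119, 0.0649% of genes passed). By contrast, Nlgn2 in CA2/3-like nuclei had 0.42 and 0.40, and Lrrtm4 there had -0.48 and -0.36, with a difference of -0.12 (SE 0.19).

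**Figure D3:**
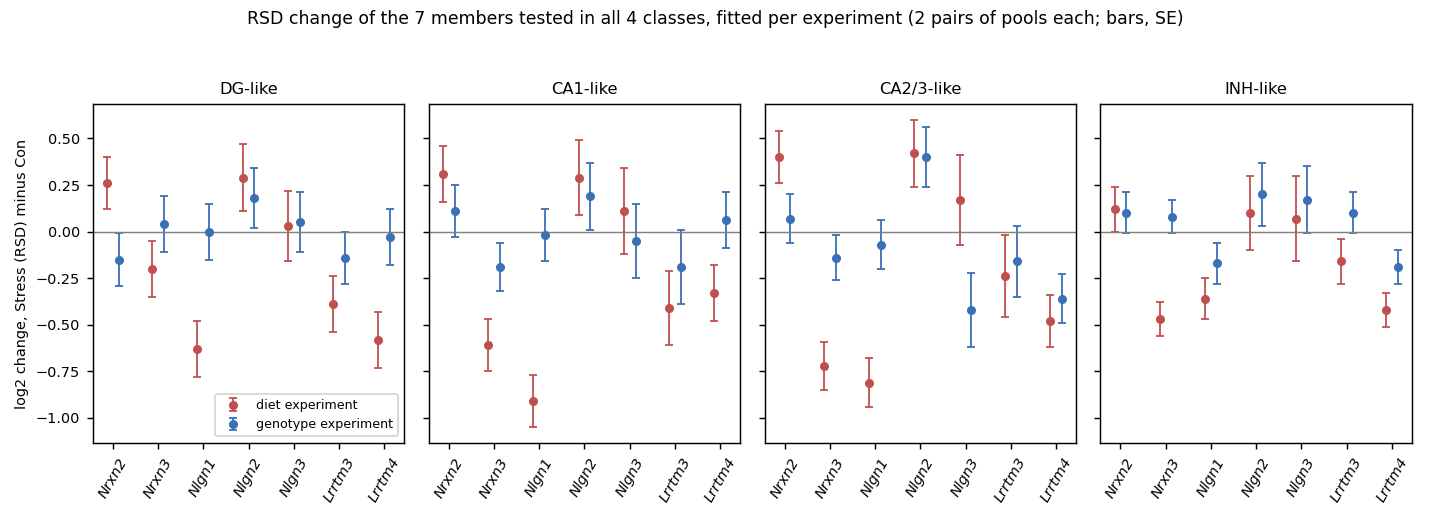
Log2 change between RSD and control pools (y axis) of 7 genes (x axis) in the 4 main classes, fitted for the diet (red) and the genotype experiment (blue), with SE as bars. Nlgn1 stands at -0.91 and -0.02 in CA1-like nuclei, and Nlgn2 at 0.42 and 0.40 in CA2/3-like nuclei.

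Depth and the mix of clusters also differed between the experiments, and between the control and RSD pools of single pairs. Gene span was looked at beside them. CA1-like nuclei consisted of a shallow and a deep cluster, and the shallow cluster held 424, 1030, 1163 and 1282 nuclei of Con-Veh, Con-PLX, Stress-Veh and Stress-PLX but 168, 72, 114 and 151 nuclei of the 4 genotype pools. Within the deep cluster alone, Nlgn1 had -0.65 and -0.02 (difference -0.63, SE 0.15, edgeR adjusted p = 0.0156, 0.463% of genes passed), and within the shallow cluster -1.01 and -0.14 (adjusted p = 0.182, 0.179% of genes passed). With every nucleus thinned to 500 UMIs the difference was -0.94. DG-like nuclei also held a deep and a shallow cluster, and the deep one held 1133, 151, 505 and 148 nuclei of the 4 diet pools in the same order, and 706 to 1215 nuclei of each genotype pool. Within it alone the diet changes were -0.43 for Nlgn1 and -0.35 for Lrrtm4, and within the shallow one -0.72 and -0.71. In the largest CA2/3-like cluster alone Nlgn1 differed by -0.77 (SE 0.18, edgeR adjusted p = 0.0430, 0.878% of genes passed).

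Long genes as a whole had negative RSD changes in the diet experiment. Among genes tested in CA1-like nuclei, the median log2 change in the diet experiment was 0.23 for 4004 genes spanning under 25 kb, -0.02 for 4662 genes of 25 to 100 kb, -0.17 for 2162 genes of 100 to 500 kb and -0.35 for 234 genes over 500 kb, against 0.05, -0.01, -0.01 and -0.03 in the genotype experiment. The same medians for genes over 500 kb were -0.42 in CA2/3-like, -0.28 in DG-like and -0.22 in INH-like nuclei in the diet experiment, and -0.05, -0.01 and -0.02 in the genotype experiment. Nlgn1 lay well below that median in CA1-like nuclei, where 3 of 234 such genes were lower, while Nrxn3 had 46 and Lrrtm4 had 125 of them below it. In DG-like nuclei 8 of 237 long genes were lower than Nlgn1, 17 lower than Lrrtm4 and 144 lower than Nrxn3. In CA2/3-like nuclei 14 of 238 were lower than Nlgn1, 27 lower than Nrxn3 and 96 lower than Lrrtm4. In INH-like nuclei 53 of 236 were lower than Nlgn1, 24 lower than Nrxn3 and 34 lower than Lrrtm4. Lrrtm4 at -0.33 was thus close to the median of its length in CA1-like nuclei. Nrxn2 went against its length, with 0.31 in CA1-like and 0.40 in CA2/3-like nuclei where genes of 100 to 500 kb had medians of -0.17 and -0.19. The short Nlgn2 had diet changes of 0.29, 0.42, 0.29 and 0.10 in CA1-like, CA2/3-like, DG-like and INH-like nuclei. Genes under 25 kb had medians of 0.23, 0.24, 0.14 and 0.15 there. In the genotype experiment Nlgn2 had 0.19, 0.40, 0.18 and 0.20 against medians of 0.05, 0.06, 0.03 and 0.02. Also in the genotype experiment, 125 of 234 long genes were lower than Nlgn1 in CA1-like and 108 of 238 in CA2/3-like nuclei. In DG-like nuclei these were 136 of 237, and in INH-like nuclei 40 of 236.

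**Figure D4:**
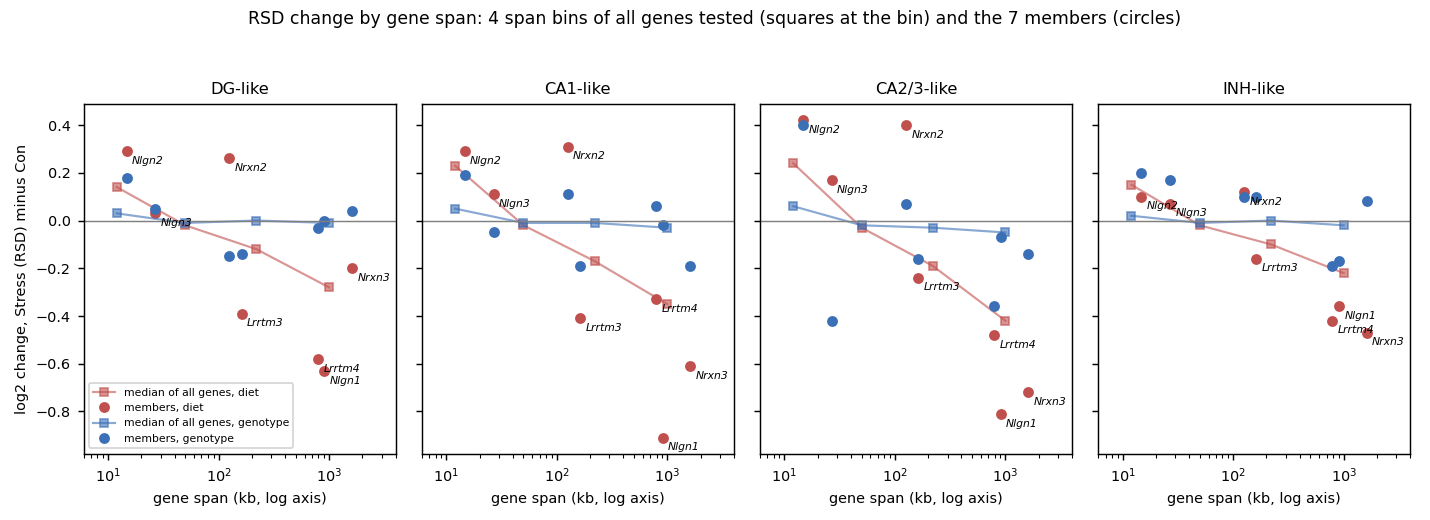
Log2 change between RSD and control pools (y axis) against gene span in kb (x axis, log scale) in the 4 main classes; squares joined by lines are medians of all genes tested in 4 bins of span, each drawn at 1 place within its bin, and circles are the 7 members, red for the diet and blue for the genotype experiment. In CA1-like nuclei the red medians go from 0.23 to -0.35 and the blue ones from 0.05 to -0.03, with Nlgn1 at -0.91 below the red line and Nrxn2 at 0.31 above it.

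The summed level of 4 general neuronal markers in CA1-like nuclei was 4627 to 4837 CPM in control pools and 4633 to 4894 CPM in RSD pools, so that the ranges overlapped. Single genes of that kind, chosen after their values were seen, went both ways. Syt1 in CA1-like nuclei was 2746 and 2879 CPM in the controls and 2256 and 2166 CPM in the RSD pools of the diet experiment, and 2833 to 2927 CPM in the genotype pools. Rbfox3, a neuronal splicing factor, was 1398 and 1376 CPM in the controls and 2012 and 2014 CPM in the RSD pools of the diet experiment. In the genotype pools Rbfox3 was 1274 and 1452 CPM without and 1657 and 1562 CPM with RSD. The part of depth, cluster mix, span and these genes in the Nlgn1 values was not tested.

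The influence of PLX5622 was then assessed as the 2 PLX pools against the 2 Veh pools. No member passed (edgeR), with 0.12% of all genes past the threshold in DG-like, 0.00899% in CA1-like, 0.00829% in CA2/3-like and 0% in INH-like nuclei, and the DESeq2 Wald test called none of the 9 either, and 18 genes in all. At an unadjusted p under 0.05 there were 2 of 7 members tested in CA1-like nuclei, against 694 of 11129 genes in all. In INH-like nuclei there were 2 of 9 members, against 774 of 12333 genes. DG-like and CA2/3-like nuclei had 0 of 7 members each, against 890 of 11696 and 554 of 12057 genes. CA1-like counts of this design were simulated with 1 baseline for all pools. There the contrast recovered 37% of genes changed by a log2 of 1 and 78% of those changed by 2. Lrrtm4 in CA1-like nuclei was 809.4 and 822.8 CPM in Con-Veh and Stress-Veh and 1585 and 1054 CPM in Con-PLX and Stress-PLX (log2 change 0.74, SE 0.21, adjusted p = 0.339). Both PLX pools lay above both Veh pools, which in turn lay above the 524.2 to 608.7 CPM of the genotype pools. Without Stress-PLX the change was 1.06 and passed (edgeR adjusted p = 4.96e-04), but the PLX arm was then the single pool Con-PLX, whose spread is assumed to be that of the other groups, and 244 genes passed in the 4 main classes in place of 16. Within the deep CA1-like cluster it was 0.45 (SE 0.17, adjusted p = 0.754).

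Nlgn1 in INH-like nuclei was 1931 and 1712 CPM in the Veh pools and 2698 and 1973 CPM in the PLX pools (0.42, SE 0.14, adjusted p = 0.646). In CA1-like nuclei the PLX to Veh log2 ratio of Nlgn1 was 0.26 without and -0.22 with RSD, and in DG-like nuclei 0.32 and -0.13. The 2 ratios pointed in opposite directions in both classes, and with 1 pool for each condition that difference was not tested. Lrrtm3 in CA1-like nuclei was 59.6 and 51.4 CPM in the Veh pools and 90.0 and 60.8 CPM in the PLX pools (0.49, SE 0.22, adjusted p = 0.787), and the change was -0.09 after thinning and -0.03 at a clustering resolution of 2.0. Cbln2 in INH-like nuclei was 3.92 and 4.81 CPM in the Veh pools and 1.31 and 0 CPM in the PLX pools (adjusted p = 0.778). The PLX pools held 1 UMI in all, and the log2 ratio of Con-PLX to Con-Veh, 1 against 14 UMIs, was -1.58 with an interval of -6.98 to 1.14.

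The influence of neuronal IL-1R1 was assessed as the 2 knockout pools against the 2 IL-1R1+/+ pools. Il1r1 itself, the deleted gene, fell by 2.14 on the log2 scale in DG-like nuclei (SE 0.22, edgeR adjusted p = 7.61e-05). It was the 1 gene past the threshold there (0.00855% of genes), and 0% passed in any of the CA1-like, INH-like and CA2/3-like classes, so that no member was called by edgeR, and none was called by the DESeq2 Wald test, which also called 1 gene. At an unadjusted p under 0.05 there was 1 of 7 members tested in CA2/3-like nuclei, against 279 of 12057 genes in all. DG-like, CA1-like and INH-like nuclei had 0 of 7, 0 of 7 and 0 of 9 members. In these classes 233 of 11696, 135 of 11129 and 259 of 12333 genes had such a p. Lrrtm3 in CA2/3-like nuclei was 43.8 and 52.8 CPM in the wild-type control and RSD pools and 84.4 and 57.0 CPM in the knockout control and RSD pools (0.56, SE 0.21, adjusted p = 1.00). Median log2 changes over the classes were -0.02 to 0.06 for the 7 abundant members, with Nlgn1 at 0.05, Nrxn3 at 0.02 and Lrrtm4 at 0.06. In CA1-like counts simulated with 1 baseline for all pools, this contrast recovered 95% of genes changed by a log2 of 2. It recovered 56% of those changed by 1.

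Lastly, other genes of trans-synaptic adhesion were taken from lists of 29 extracellular partners of neurexins and neuroligins, 10 intracellular partners and 19 organizers of the LAR-receptor type. In each of the 4 main classes 21 or 22 of the extracellular partners, all 10 intracellular partners and 17 or 18 of the organizers passed the filter, and 0 were called higher or lower by edgeR in any of the 3 comparisons. The extracellular partners had median log2 RSD changes of -0.16 in CA1-like, -0.09 in CA2/3-like, -0.01 in DG-like and -0.12 in INH-like nuclei, where the medians of all genes were 0 to 0.01. The intracellular partners, which include the scaffolds Dlg4 and Gphn, had medians of -0.10 to 0.02.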

How the data were processed

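UMI counts for each gene in each nucleus were deposited by the authors, who made them with the Parse Biosciences pipeline from reads aligned to mm39, and per-nucleus tables that name the pool. The submitters' processing notes name Seurat 4.1.1. The pipeline's version, the annotation release and whether counting used strand are not given in the sources used here. The 4 deposited samples are sublibraries, each with nuclei of all 8 pools, so the pool is the unit tested.

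Nuclei over 20% mitochondrial UMIs were left out. Clusters were made with scanpy 1.11.5 (2000 variable genes, 30 principal components, 15 neighbours, Leiden resolution 1.0) and named from markers, and the naming rule was set after the cluster tables were seen. No doublet was removed in the main analysis. UMIs were summed for each pool and class (at least 20 nuclei in every pool) and tested with edgeR 4.0.16 (TMM, filterByExpr, glmQLFTest, 4 pairs of pools and RSD as terms, 3 residual degrees of freedom). The model for the difference between experiments had an RSD term for each experiment, and so fewer residual degrees of freedom. CPM values scale a gene's UMIs to the summed UMIs of that class and pool. Intervals are exact 95% Poisson or binomial intervals. Coordinates are from GENCODE vM39, in which 56017 of 56748 identifiers were found. Scripts were tested on simulated data. In simulated CA1-like counts the RSD comparison recovered 78% of genes changed by a log2 of 1. The RSD changes of the members in CA1-like nuclei were smaller, the largest in size being -0.46 for Nlgn1. In all simulated comparisons the pools shared 1 baseline, and a changed gene changed alike in every pool of its group. Recovery of changes that differ between pairs was not tested.

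The members, gene lists and tests were chosen with earlier results of these data known. The rule for named genes took the 9 members, checks of the knockout and the diet, partner genes past the threshold (there were none) and the 3 genes most like each member, of which the first is given. Syt1, Rbfox3, Ctnna3, the genes that lead clusters, and Dlg4 and Gphn as examples of a list were named outside this rule, after values were seen. The alternatives were DESeq2 1.42.0 size factors and Wald test, other filters on low counts, no pair term, each experiment alone, each pool left out, thinning to 500 UMIs, a 5% mitochondrial limit, removal of the 6% of nuclei with the highest doublet scores, 15 principal components and resolution 2.0.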

Additional observations from a re-analysis of the deposited data

Results flagged for a closer look

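Nlgn1 in CA1-like nuclei was singled out because its RSD change differed between the experiments by a test of the difference itself, with a log2 difference of -0.89 (SE 0.20, edgeR adjusted p = 0.0140) between -0.91 in the diet and -0.02 in the genotype experiment. Both diet pairs pointed down, with log2 ratios of -0.62 and -1.10. Strain and experiment cannot be told apart here. Median depth was 2563 UMIs in Con-Veh, the deepest diet pool, and 2580 in Stress-nIL-1R1-/-, the shallowest genotype pool. The part of depth in this difference was not tested.

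Nlgn3 in CA2/3-like nuclei was singled out for a pool that stood apart from the other control pools. Con-PLX was at 19.3 CPM and the other 3 controls were at 36.6 to 38.1 CPM, a gap of 0.92 of the range, which is past Dixon's 95% critical value. The class held 985048 UMIs in Con-PLX and 4750860 to 12118253 in the other 3 controls, and this rule took no account of counting error. It was the 1 such group among 56 groups of 4 pools looked at, and at that level chance alone would be expected to mark some.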

How the results depend on the processing

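With the DESeq2 Wald test, DESeq2 size factors, at least 10 UMIs in every pool, thinning, a 5% mitochondrial limit, doublet removal, 15 components and resolution 2.0, the number of members called for RSD stayed at 0, as it did with each pool left out (0 to 0). It was 7 with no filter on low counts (Nlgn1 and Lrrtm4 in DG-like, Nrxn3 and Nlgn1 in CA1-like, Nrxn3, Nlgn1 and Lrrtm4 in CA2/3-like nuclei) and 3 in the 4 diet pools alone (Nlgn1 in CA1-like, Nrxn3 and Nlgn1 in CA2/3-like nuclei). The numbers of genes tested in these refits are not given here. With an RSD term for each experiment, chosen after seeing the data, 1 member was called in the test of the difference, which is another test than that of the RSD change. For PLX5622 it was 0 to 1 with a pool left out (Lrrtm4 in CA1-like nuclei without Stress-PLX), and for the knockout 0 throughout. All genes called for RSD in the 4 main classes were 27, and 300 with the Wald test, 919 with no filter, 9 with at least 10 UMIs, 1943 in the diet pools, 223 in the genotype pools, 61 after thinning, 125 with 15 components and 9 to 259 with a pool left out. The pair term is the replicate block here, and without this block the count was 1. For PLX5622 the 16 genes became 146 with no filter, 3 with at least 10 UMIs, 138 in the diet pools, 6 with 15 components, 9 at resolution 2.0 and 1 to 244 with a pool left out. For the knockout the 1 gene became 11 with no filter, 31 in the genotype pools, 0 after thinning and 1 to 4 with a pool left out.

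The Nlgn1 difference in CA1-like nuclei was -1.17 to -0.61 with a pool left out and lost its call without the control (-0.86) or RSD pool (-0.86) of the wild type or the control (-0.92) or RSD pool (-0.92) of the knockout. After thinning, median CPM moved from 0.698 to 0 for Cbln4 in CA1-like nuclei, and in INH-like nuclei from 62.7 to 73.0 for Nlgn2, 38.8 to 49.3 for Nlgn3, 2.68 to 6.39 for Cbln2 and 3.96 to 1.30 for Cbln4. Sign changes after thinning are listed here for changes at an unadjusted p under 0.05. They are also listed for those RSD ratios of Nrxn3, Nlgn1 and Lrrtm4 whose intervals excluded 0. Among these, 3 values changed sign. The PLX5622 change of Lrrtm3 in CA1-like nuclei went from 0.49 to -0.09, and to -0.03 at resolution 2.0. The IL-1R1+/+ RSD ratio of Lrrtm4 went from 0.16 to -0.06 in CA1-like and from -0.15 to 0.11 in CA2/3-like nuclei. Of 48 RSD ratios of Nrxn3, Nlgn1 and Lrrtm4 in the 4 main classes, thinning left 22 within their intervals and moved 24 outside them. None of the 11 RSD changes at an unadjusted p under 0.05 took the opposite sign in the 220 refits. A change that rounded to 0 was not counted as opposite. These 11 were picked by p from the same pools that the refits reuse, so this is no separate support. Of the other 19 RSD changes, 11 changed sign in at least 1 refit. So did 19 of 26 PLX5622 changes and 24 of 29 knockout changes that were not at an unadjusted p under 0.05. The cause was not tested. Thinning left 4404 to 8017 nuclei per pool.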
